A study of Glycine max with 5 samples.

Results

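The RNA processing transcripts of soybean pollen described here are the 36 probe sets that the study placed under the heading Post-Transcription in its file of transcripts up-regulated in pollen. The array holds 37593 soybean probe sets and the file lists 1682 of them. Because the file was drawn up from the contrast between pollen and sporophytic tissues on these same arrays, a higher signal in pollen is what chose the 36 probe sets. Their signals and differences are therefore given as a description, and any test of that contrast on them, or of whether they keep their call, repeats the choice and supports nothing.

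The arrays compared mature pollen (3 arrays) with sporophytic tissues (2 arrays) of soybean, Glycine max. The pollen came from plants of the cultivar Bragg raised in a glasshouse at 30 degrees C under 16 hours of light and 8 hours of dark, in which a photoperiod of 12 hours induced flowering. It was gathered on cover slips from isolated anthers, from which other anther tissue was taken away, and soybean pollen is bi-cellular at this stage, so RNA of the vegetative cell and of the generative cell was measured together. The sporophytic RNA came from 10-day-old Bragg seedlings and is a mixture of organs. The methods name stem, root and leaf. The results text names leaf and stem at first, and later stem, root and leaf. No mutant, transgene or treatment was involved in either group. A higher signal on a bulk array cannot be told apart from a larger share of the cells that make the transcript.

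RNA processing covers the steps between transcription and translation. Introns are removed by the spliceosome, the 3' end is cleaved and given a poly(A) tail, RNA-binding proteins and RNA helicases remodel the transcript, and deadenylation, decapping and nonsense-mediated decay remove it again. Mature pollen is known for storing transcripts made before it is shed and translating them when the tube grows, and RNA-binding proteins and helicases are part of how such stored transcripts are held and used. Small RNA pathways, built on Dicer and Argonaute proteins, silence transcripts and transposons.

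By annotation, 13 of the 36 probe sets encode RNA-binding proteins, 8 encode RNA helicases, 3 encode splicing proteins, 3 belong to mRNA decay, 2 are nucleotidyltransferases, 2 match a protein that binds double-stranded RNA and 5 have an annotation that names no RNA function. An Arabidopsis protein is given as best match for 34 probe sets. These are 20 different proteins, and 7 of them are matched by more than 1 probe set, 21 probe sets in all, so the 36 probe sets do not stand for 36 separate genes. The array annotation pairs only 4 of them with a soybean gene symbol, and each of the 4 is a bare locus number. The values are the deposited log2 signals, for which the paper's methods name Robust Multiarray Averaging (RMA). In them 1 unit is a factor of 2 in signal, and each difference is pollen minus sporophytic tissues.

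Over all soybean probe sets, the median log2 signal lay between 4.11 and 4.24 on the pollen arrays, against 5.25 and 5.43 on the sporophytic arrays. Signals of 100 or more (6.64 on the log2 scale) were found for 18.4 to 19.9% of all probe sets in pollen, against 33.7 and 35.9% in sporophytic tissues. The methods set this limit on each replicate as a criterion for pollen-specific transcripts. For the sporophytic replicates they asked for absent calls, which were not used here. Green tissue was marked by CAB3, a chlorophyll-binding protein, for which 3 of 5 probe sets were lower in pollen, with means of 5.69 to 8.82 in pollen and 13.42 to 14.31 in sporophytic tissues. The part of this green-tissue signal in the differences below was not tested. The only symbol found for a pollen marker was PRO2, a profilin, which was lower in pollen on 1 of 2 probe sets and is not limited to pollen. The pollen label could therefore not be checked by an independent marker on these arrays. The authors had checked the purity and viability of the pollen under the microscope and with fluorescein diacetate.

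All 36 RNA processing probe sets were higher on every pollen array than on either sporophytic array. The smallest gap between the lowest pollen array and the highest sporophytic array was 1.88 and the largest was 7.08. Across the whole array, 36.4% of the probe sets were likewise higher with no overlap, and 41.7% were lower with none. In limma's moderated test across all soybean probe sets, 36 of the 36 had an adjusted p under 0.05 in this direction, which the choice of the list brings about. The same call was made for 18.9% of all probe sets, and 34.5% were called lower. This balance turned with the scaling, to 13917 higher against 9940 lower calls after quantile normalization of these probe sets and to 20047 against 9837 with equal array medians. As deposited, 7104 probe sets were called higher, against the 1682 that the study's file lists at an adjusted p under 0.05. The reason for this gap was not tested.

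The log2 differences of the 36 probe sets ran from 2.15 to 7.65, with a median of 3.97, which corresponds to a 15.7-fold higher signal. The median was 5.0 after quantile normalization and 5.12 with equal array medians, settings that shifted the median of all probe sets by 0.34 and 1.15. Over all soybean probe sets the median was -0.22. Differences of 2 to 3 units were found for 7 probe sets, of 3 to 4 for 11, of 4 to 5 for 7, of 5 to 6 for 7, of 6 to 7 for 3 and of 7 to 8 for 1. More than a 10-fold difference was thus measured for 28 of the 36. RNA-binding proteins had a median difference of 5.02, the 5 probe sets without an RNA annotation 4.53, decay proteins 4.09, nucleotidyltransferases 3.77, helicases 3.70, the double-stranded RNA binding protein 2.91 and splicing proteins 2.82. These groups are small and hold several probe sets of a match, so their order is a description only.

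**Figure D1:**
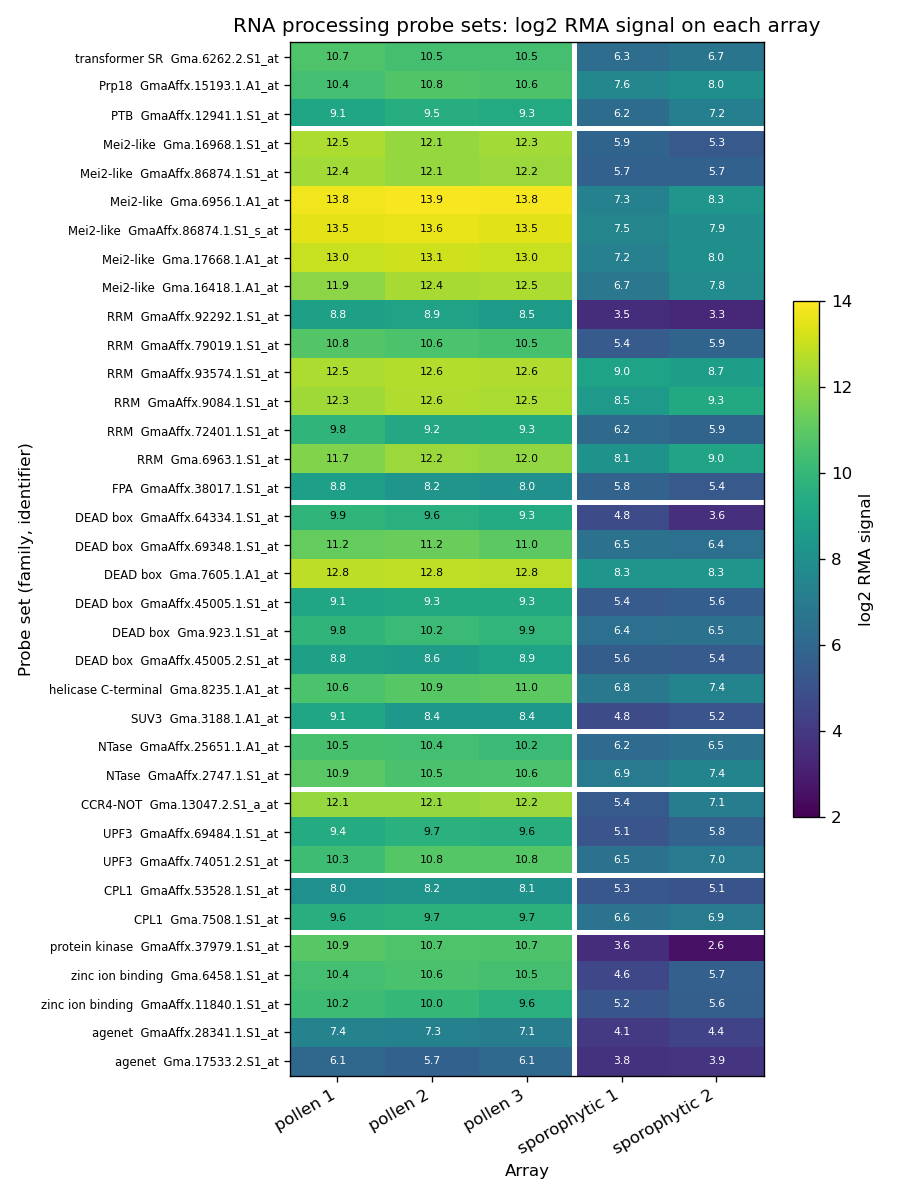
Log2 RMA signal of the 36 RNA processing probe sets (rows, grouped by annotation, white lines between groups) on the 3 pollen arrays and the 2 sporophytic arrays (columns), with the value printed in each cell. Every row is brighter on the pollen arrays, and the brightest rows are Mei2-like probe sets with signals up to 13.87 on the pollen arrays.

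The levels themselves were spread widely. In pollen the mean log2 signals lay between 5.97 and 13.82, and 35 of the 36 probe sets reached a signal of 100 on all 3 arrays, as 17.4% of all soybean probe sets did. The exception was a probe set for an agenet domain protein, which stayed below 100 on all 5 arrays. In sporophytic tissues the means lay between 3.09 and 8.88, with 11 of the 36 at 100 or above on both arrays, 5 on 1 of the 2 arrays and 20 on neither. The corresponding share of all soybean probe sets was 29.8% on both arrays and 60.2% on neither. Reaching 100 on every pollen array and on no sporophytic array, together with a call of at least 2-fold, was met by 19 of the 36 (52.8%) and by 4.13% of all probe sets. Under the other headings of the study's file it was met by 912 of 1646 (55.4%), where the median difference was 4.64. The 36 and the other headings were chosen by the same contrast, so no test was made between them.

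Among the RNA-binding proteins, the largest differences, from 5.42 upwards, were those of 5 Mei2-like probe sets. Mei2 is an RNA-binding protein that starts meiosis in fission yeast, and plants have a family of such proteins, AML in Arabidopsis, with several RNA recognition motifs. It was matched by 6 probe sets, 5 to At5g07290 (AML4 of Arabidopsis) and 1 with no Arabidopsis number, and their differences lay between 5.02 and 6.71. Gma.16968.1.S1_at had a log2 signal of 12.53, 12.11 and 12.33 on the pollen arrays, against 5.89 and 5.35 on the sporophytic arrays. The pollen mean was 12.32 ± 0.21 (SD, n = 3), the sporophytic mean was 5.62 ± 0.38 (SD, n = 2), and this gave a difference of 6.71 with a standard error of 0.23. This is a 104-fold higher signal, and the sporophytic signal stayed below 100 on both arrays.

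GmaAffx.86874.1.S1_at had a narrower spread, with 12.35, 12.08 and 12.19 on the pollen arrays, against 5.73 and 5.72 on the sporophytic arrays. Its partner GmaAffx.86874.1.S1_s_at, which was designed on the same sequence and by its suffix can take signal from several genes, was brighter in both groups. It had 13.52, 13.61 and 13.47 in pollen and 7.48 and 7.88 in sporophytic tissues. The difference was 6.49 for the first and 5.86 for the second, so the probe set open to several genes had the smaller difference and reached 100 on both sporophytic arrays.

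The remaining Mei2-like probe sets had a measurable sporophytic signal as well. Gma.6956.1.A1_at was the brightest of all 36 in pollen, at 13.75, 13.87 and 13.84, with 7.26 and 8.26 in sporophytic tissues. Gma.17668.1.A1_at had 12.99, 13.12 and 12.98 in pollen and 7.24 and 7.98 in sporophytic tissues. Gma.16418.1.A1_at had 11.92, 12.42 and 12.52 in pollen and 6.74 and 7.80 in sporophytic tissues, and of the Mei2-like probe sets it had the smallest difference, 5.02 with a standard error of 0.41. Sporophytic replicate 2 was the higher of the pair on each of these, by 1.00, 0.74 and 1.06 in the same order.

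A further Mei2-like protein stands under another heading of the same file, Cell Growth & Division. Its 4 probe sets matched AML1 of Arabidopsis and had differences of 5.12 to 5.93, with pollen means of 9.37 to 13.10 and sporophytic means of 3.44 to 7.98. All 4 carry the same cluster number in their names, and 2 of them have suffixes that mark signal from several transcripts. The differences of the AML1 probe sets lay within the range of the 6 described above, and they were chosen by the same contrast.

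The RNA recognition motif (RRM) is the commonest fold by which eukaryotic proteins bind RNA. Mei2-like proteins carry it too and were counted apart, so the RRM group here does not hold every RRM protein. This group had 6 probe sets for 3 Arabidopsis matches. At5g46250, which in Arabidopsis is a La-related protein (LARP6a), was matched by 3 of them with unequal differences. GmaAffx.92292.1.S1_at had 8.83, 8.91 and 8.52 on the pollen arrays, against 3.55 and 3.32 on the sporophytic arrays, a difference of 5.32. GmaAffx.93574.1.S1_at had 12.50, 12.61 and 12.59 in pollen and 8.97 and 8.67 in sporophytic tissues. GmaAffx.9084.1.S1_at had 12.27, 12.55 and 12.49 in pollen and 8.48 and 9.28 in sporophytic tissues. The last pair differed between the groups by 3.75 and 3.56 and were among the brightest of the 36 on the sporophytic arrays, whereas GmaAffx.92292.1.S1_at, whose locus is LOC100807619, was at the dim end there.

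At4g26650, a further RRM protein, was matched by Gma.6963.1.S1_at and GmaAffx.72401.1.S1_at. Gma.6963.1.S1_at had 11.71, 12.18 and 12.05 in pollen and 8.13 and 9.02 in sporophytic tissues. GmaAffx.72401.1.S1_at had 9.85, 9.24 and 9.30 in pollen and 6.17 and 5.87 in sporophytic tissues. Although the levels of these probe sets lay apart, their differences were close, at 3.40 and 3.44, within their standard errors of 0.34 and 0.25. GmaAffx.79019.1.S1_at, matched to the RNA-binding protein At3g12640, had a larger difference of 4.98, with 10.77, 10.62 and 10.51 in pollen and 5.44 and 5.87 in sporophytic tissues.

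FPA, an RNA-binding protein that controls flowering time and the choice of poly(A) sites in Arabidopsis, had the smallest difference of the RNA-binding proteins. GmaAffx.38017.1.S1_at had 8.77, 8.24 and 8.05 on the pollen arrays, against 5.81 and 5.37 on the sporophytic arrays. Its difference was 2.77 with a standard error of 0.29, and pollen replicate 1 was the highest of the pollen arrays.

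**Figure D2:**
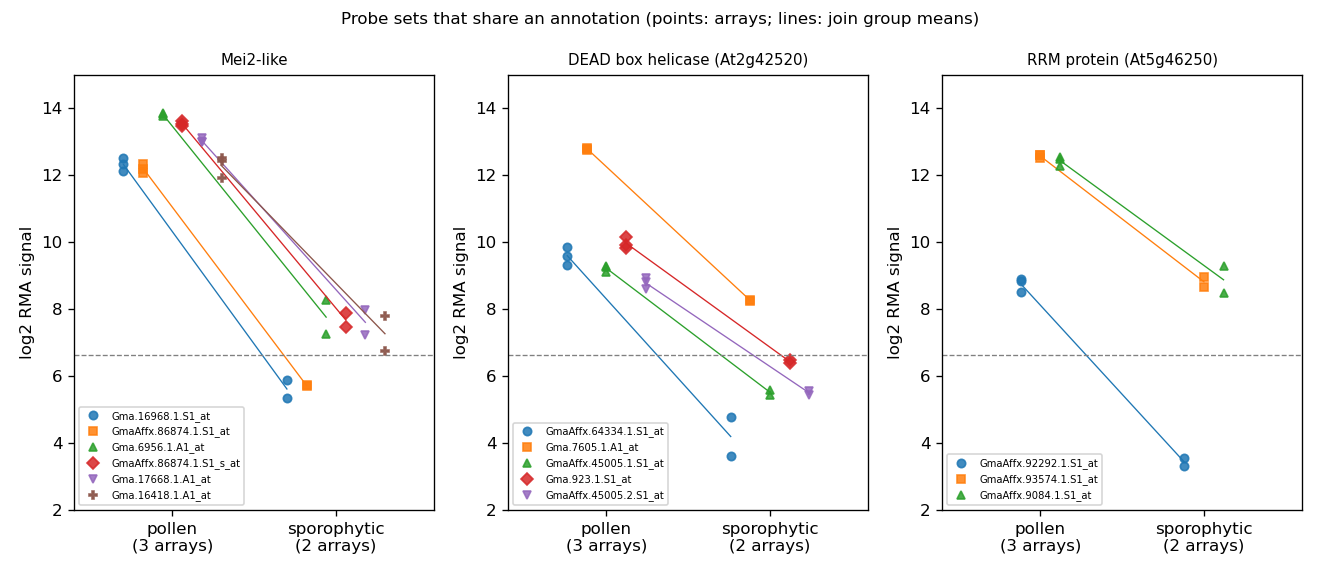
Log2 RMA signal of probe sets that share an annotation, for Mei2-like proteins (6 probe sets), the DEAD box helicase At2g42520 (5) and the RRM protein At5g46250 (3), with pollen on the left and sporophytic tissues on the right of each panel. Points are arrays, lines join the group means and the dashed line is a signal of 100, and the probe set of At5g46250 with the lowest signals, means of 8.75 in pollen and 3.43 in sporophytic tissues, has the steepest line of its panel.

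RNA helicases of the DEAD box type unwind short RNA duplexes and displace proteins from RNA. At2g42520 and At3g58570 of Arabidopsis (RH37 and RH52) belong to the group of yeast Ded1 and animal DDX3, which act when translation starts. At2g42520 was matched by 5 probe sets, with differences of 3.28, 3.53, 3.70, 4.54 and 5.40. Gma.7605.1.A1_at was the brightest and the most even of them, with 12.79, 12.83 and 12.77 in pollen and 8.26 on each sporophytic array. Its difference of 4.54 had a standard error of 0.05, the smallest of the 36.

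The largest difference among the helicases came from the dimmest probe set on the sporophytic arrays. GmaAffx.64334.1.S1_at had 9.86, 9.60 and 9.33 in pollen and 4.78 and 3.62 in sporophytic tissues, and its standard error was 0.42. Gma.923.1.S1_at had 9.83, 10.17 and 9.91 in pollen and 6.39 and 6.49 in sporophytic tissues. GmaAffx.45005.1.S1_at and GmaAffx.45005.2.S1_at, which share a cluster number, had pollen means of 9.22 and 8.78 and sporophytic means of 5.52 and 5.50. Their differences, 3.70 with a standard error of 0.09 and 3.28 with a standard error of 0.13, lay further apart than these errors. For At3g58570, GmaAffx.69348.1.S1_at had 11.15, 11.24 and 10.98 in pollen and 6.48 and 6.39 in sporophytic tissues, a difference of 4.69.

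The other helicases showed middling differences. SUV3, an RNA helicase of mitochondria, was matched by Gma.3188.1.A1_at, with 9.08, 8.41 and 8.41 in pollen and 4.77 and 5.15 in sporophytic tissues. Its pollen replicate 1 lay 0.67 above the others, and its SD of 0.39 in pollen was the largest of the 36. Gma.8235.1.A1_at, annotated only as a helicase C-terminal domain of Medicago, had 10.58, 10.88 and 10.97 in pollen and 6.82 and 7.40 in sporophytic tissues. The differences were 3.67 and 3.71. On the sporophytic arrays 6 of the 8 helicase probe sets stayed below a signal of 100 on both.

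**Figure D3:**
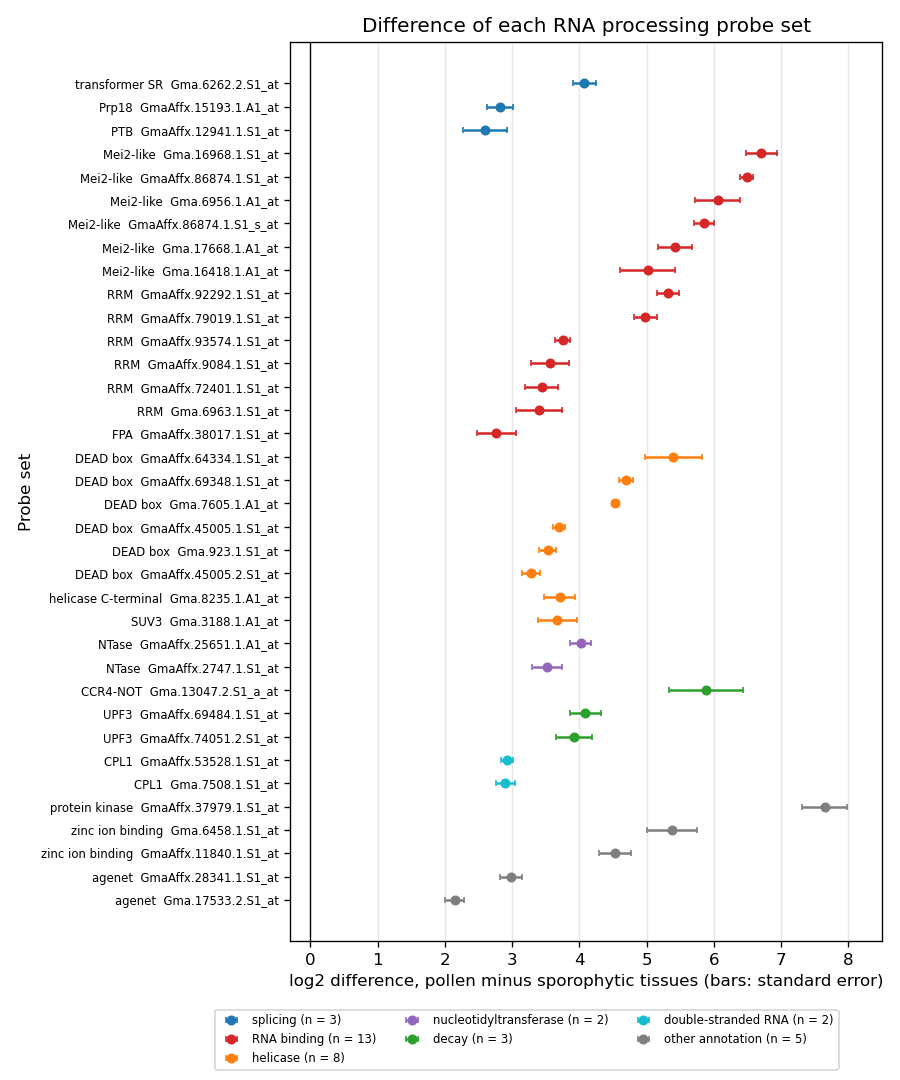
Log2 difference between the means of pollen and sporophytic tissues for each of the 36 RNA processing probe sets, coloured by annotation group, with bars for the standard error from limma. The probe set annotated as a protein kinase lies farthest to the right at 7.65, followed by Mei2-like probe sets at 6.71, 6.49 and 6.06 and the CCR4-NOT protein at 5.88, and splicing proteins other than the SR protein, FPA, CPL1 and agenet proteins lie below 3 units.

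Splicing was represented by 3 probe sets, each for a different step. Gma.6262.2.S1_at matched the transformer-like serine/arginine-rich (SR) protein At1g07350 (SR45a), of a family that marks exons for the spliceosome. It had 10.71, 10.48 and 10.46 in pollen and 6.28 and 6.68 in sporophytic tissues, a difference of 4.07 with a standard error of 0.17. GmaAffx.15193.1.A1_at matched Prp18, which acts in the step that joins the exons. It had 10.39, 10.76 and 10.63 in pollen and 7.56 and 7.99 in sporophytic tissues. GmaAffx.12941.1.S1_at matched a polypyrimidine tract-binding protein, a regulator of alternative splicing, and had 9.12, 9.46 and 9.34 in pollen and 6.24 and 7.16 in sporophytic tissues. The differences of Prp18 and of this regulator were 2.82 and 2.60, and the polypyrimidine tract-binding protein had the smallest margin among the splicing proteins, 1.96 between its lowest pollen and its highest sporophytic array. Each of the 3 reached 100 on at least 1 sporophytic array.

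The nucleotidyltransferase probe sets had differences close to the median of the 36. GmaAffx.25651.1.A1_at was annotated as a nucleotidyltransferase and matched At2g25850, a nuclear poly(A) polymerase of Arabidopsis (PAPS2). It had 10.50, 10.43 and 10.20 in pollen and 6.19 and 6.52 in sporophytic tissues, a difference of 4.02 with a standard error of 0.16. GmaAffx.2747.1.S1_at, at the locus LOC100816328 and similar to a nucleotidyltransferase family protein, had 10.94, 10.54 and 10.62 in pollen and 6.93 and 7.43 in sporophytic tissues. Its difference was 3.52, and it reached 100 on both sporophytic arrays.

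Components of mRNA decay were matched by 3 probe sets. Gma.13047.2.S1_a_at, annotated as a CCR4-NOT protein, belongs to the complex that shortens poly(A) tails. It had 12.09, 12.09 and 12.18 in pollen, and its sporophytic values of 5.41 and 7.08 were the most unlike pair of all 36. The difference was 5.88 with a standard error of 0.55, the largest error of the 36, and the probe set crossed 100 on sporophytic replicate 2 only. The suffix of its name marks a probe set shared by several transcripts of a gene.

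UPF3, a factor of nonsense-mediated decay that links exon junctions to the decay of faulty transcripts, was matched by GmaAffx.69484.1.S1_at and GmaAffx.74051.2.S1_at. The first had 9.37, 9.65 and 9.59 in pollen and 5.15 and 5.76 in sporophytic tissues. The second had 10.25, 10.82 and 10.83 in pollen and 6.47 and 6.95 in sporophytic tissues. Both differences, 4.09 and 3.92, lay within their standard errors of each other.

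Of small RNA pathways, no probe set of the heading was annotated as an Argonaute, a Dicer or an RNA-dependent RNA polymerase, and 0 entries of the whole file were. The nearest annotation was CPL1 (FIERY 2), a phosphatase with domains that bind double-stranded RNA, which in Arabidopsis dampens stress responses and aids the processing of microRNA precursors. GmaAffx.53528.1.S1_at had 8.04, 8.20 and 8.13 in pollen and 5.27 and 5.13 in sporophytic tissues. Gma.7508.1.S1_at had 9.56, 9.69 and 9.70 in pollen and 6.56 and 6.94 in sporophytic tissues. The differences were 2.92 and 2.90, among the smallest of the 36 and closer to each other than their standard errors of 0.08 and 0.14. The paper states that every transcript it tied to small RNA pathways fell below its detection threshold, and its text does not name CPL1. Probe sets for small RNA pathways outside the file could not be named from the annotation used here, so their signals are not analysed here.

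The largest difference of all came from a probe set whose annotation names no RNA function. GmaAffx.37979.1.S1_at is annotated as a protein kinase, matched to At3g07250 and placed at the locus LOC100789670. It was grouped by the wording of its annotation alone, and the study placed it under Post-Transcription. Its values were 10.87, 10.70 and 10.66 in pollen and 3.58 and 2.60 in sporophytic tissues. The difference was 7.65 with a standard error of 0.33, a 201-fold higher signal, and its sporophytic mean of 3.09 was the lowest of the 36. A fold against so dim a signal is set by how low the normalized values run. GmaAffx.11840.1.S1_at and Gma.6458.1.S1_at, which match the zinc ion binding protein At5g47050, had pollen means of 9.95 and 10.49 and sporophytic means of 5.41 and 5.11, with differences of 4.53 and 5.38.

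Agenet domain proteins, of a fold related to Tudor domains, closed the list. GmaAffx.28341.1.S1_at had 7.36, 7.26 and 7.08 in pollen and 4.06 and 4.43 in sporophytic tissues. Gma.17533.2.S1_at, at the locus LOC100800837, had 6.05, 5.75 and 6.10 in pollen and 3.78 and 3.87 in sporophytic tissues. With a difference of 2.15, Gma.17533.2.S1_at was the least changed of the 36 and stayed below a signal of 100 throughout.

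Probe sets that share a cluster number with a member, but that the heading does not list, are set beside the listed ones here. There are 6 of these in 4 clusters, and 1 of them, Gma.6262.1.S1_a_at, stands without homology under another heading of the same file, so that the same contrast chose it. Unlisted stands below for probe sets not under Post-Transcription. Their adjusted p-values come from the limma fit across the whole array, adjusted by the Benjamini-Hochberg method. Of the 5 that are not in the file, 4 were higher in pollen at an adjusted p under 0.05, against 18.9% of all probe sets, and 1 did not pass. They were picked for sharing a cluster with probe sets that the contrast chose. This count is therefore a description and supports nothing about the members. No source used here says whether all probe sets of a cluster measure 1 gene.

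In the SR protein cluster, Gma.6262.1.S1_a_at had 12.51, 12.26 and 12.22 in pollen and 9.88 and 9.75 in sporophytic tissues, a difference of 2.51, which is given as a description. Gma.6262.1.S1_at had 9.66, 9.97 and 9.76 in pollen and 8.08 and 7.46 in sporophytic tissues, a difference of 2.03 (adjusted p = 0.0038). Both differences were smaller than the 4.07 of the listed Gma.6262.2.S1_at, by 1.56 and 2.04, and the listed probe set had the lowest sporophytic signal of the 3. The unlisted Gma.6262.1.S1_at lost its call with a replicate block (adjusted p = 0.078) and with array weights (adjusted p = 0.077), although its difference was 2.05 in each.

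The UPF3 cluster held the widest contrast. GmaAffx.74051.1.S1_at had 6.81, 6.82 and 7.75 in pollen and 5.84 and 6.82 in sporophytic tissues, so that the groups overlapped, with a difference of 0.79 (standard error 0.48, adjusted p = 0.24). The listed GmaAffx.74051.2.S1_at exceeded it by 3.13 in difference. With the soybean probe sets quantile normalized or with equal array medians the unlisted probe set was called higher, with differences of 2.16 and 1.94.

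Other clusters were more alike. In the cluster of the RRM protein At4g26650, the unlisted Gma.6963.2.S1_at and Gma.6963.1.S1_x_at had differences of 3.20 and 3.87, on either side of the 3.40 of the listed probe set. Gma.6963.1.S1_x_at carries the same sequence number as the listed Gma.6963.1.S1_at, and by its suffix can take signal from several genes. In the agenet cluster the unlisted Gma.17533.1.S1_at had 6.55, 5.98 and 6.63 in pollen and 4.36 and 4.77 in sporophytic tissues. Its difference of 1.83 lay just below the 2.15 of the listed probe set, which is the edge of the list by size. This call too was lost with a replicate block (adjusted p = 0.10) and with array weights (adjusted p = 0.43), at differences of 1.71 and 1.87. By the adjusted p from limma, which belongs to the choice of the list, the edge was the polypyrimidine tract-binding protein at 0.0049.

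**Figure D4:**
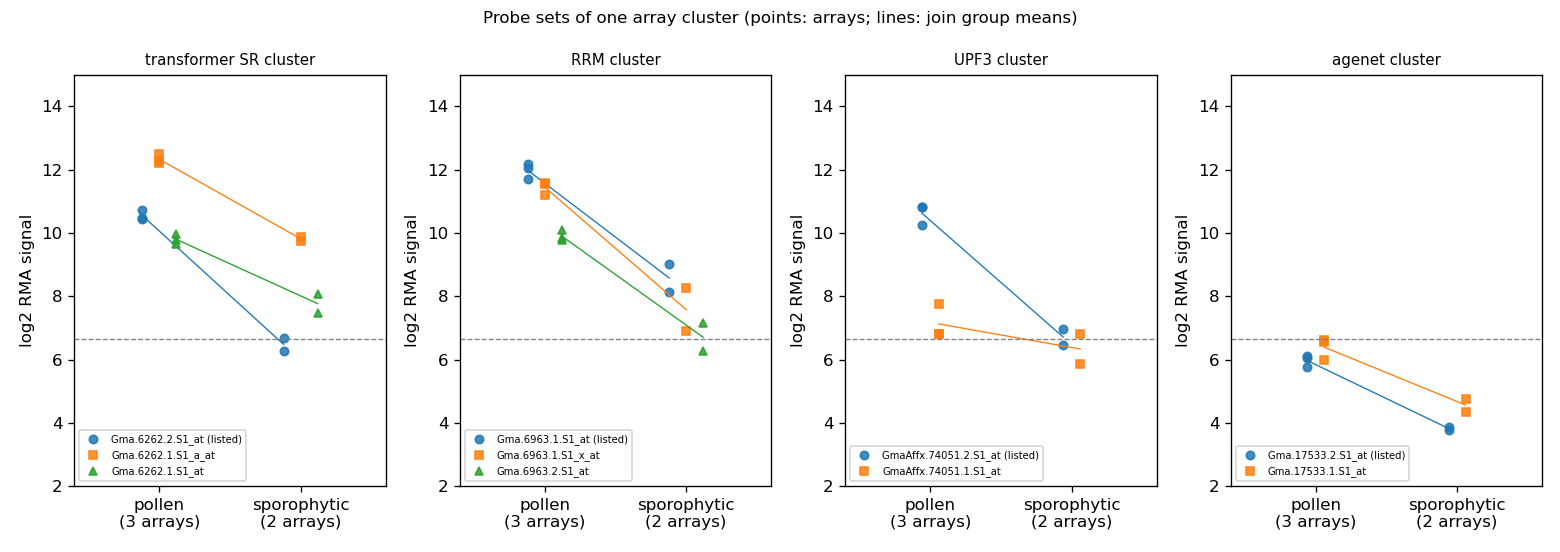
Log2 RMA signal of listed and unlisted probe sets in the 4 clusters that hold both (SR protein, RRM protein At4g26650, UPF3 and agenet protein), with pollen on the left and sporophytic tissues on the right of each panel. Points are arrays, lines join the group means and the dashed line is a signal of 100, and the unlisted UPF3 cluster probe set runs nearly flat, at a difference of 0.79.

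Replicate arrays of pollen lay close together for most of the 36. Among the 3 pollen arrays the range of a probe set had a median of 0.29 and lay between 0.06 and 0.72, and it passed 0.5 for 7 of the 36. Replicate 1 was the highest for 13 probe sets and the lowest for 15, replicate 2 the highest for 15 and the lowest for 8, and replicate 3 the highest for 8 and the lowest for 13. The SD of the 36 in pollen had a median of 0.15, against 0.08 over all soybean probe sets, many of which lie at the floor of the signal.

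The sporophytic arrays were less alike. Between them the values differed by 0.42 at the median of the 36 and by 0.39 at the median of all soybean probe sets. Sporophytic replicate 2 was higher for 25 of the 36 (69.4%) and for 64.2% of all probe sets. Higher in replicate 2 were all 3 splicing, all 3 decay and both nucleotidyltransferase probe sets. So were 7 of 13 RNA-binding proteins, 5 of 8 helicases, 1 of 2 double-stranded RNA probe sets and 4 of 5 without an RNA annotation. These groups are too small to be set apart from the share of all probe sets. The pair differed by more than 1 log2 unit for 5 of the 36, namely the CCR4-NOT protein, GmaAffx.64334.1.S1_at, Gma.6458.1.S1_at, Gma.16418.1.A1_at and Gma.6956.1.A1_at. Only GmaAffx.64334.1.S1_at was higher in replicate 1 among these. With 1 array on each side these values have no test. The leaf marker CAB3 ran the other way on its 3 bright probe sets, with 14.23, 14.88 and 15.19 on sporophytic replicate 1 and 12.61, 13.74 and 11.98 on sporophytic replicate 2. The part of this in the gap between the sporophytic arrays was not tested.

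**Figure D5:**
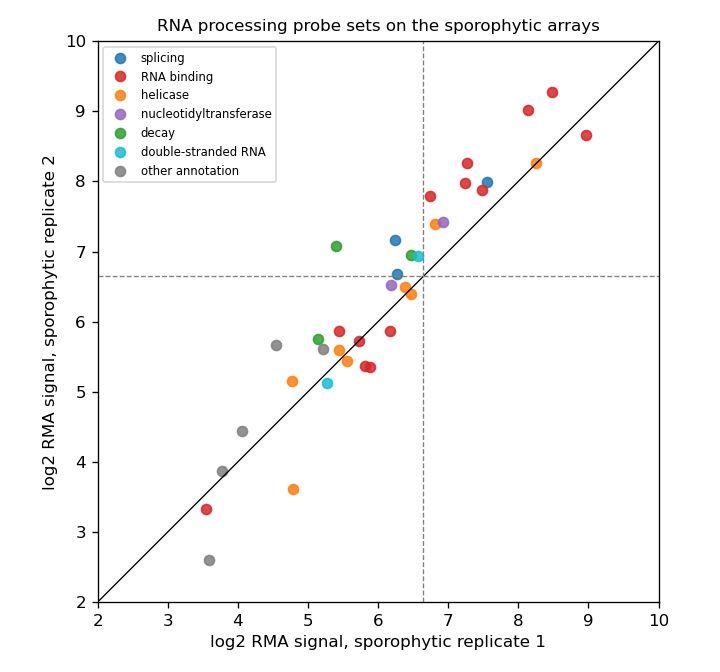
Log2 RMA signal of the 36 RNA processing probe sets on sporophytic replicate 1 (x axis) and sporophytic replicate 2 (y axis), coloured by annotation group. The solid line marks equal signal and the dashed lines a signal of 100, and 25 of the 36 points lie above the solid line.

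Other entries of the study's files carry RNA annotations under other headings. They were found by a search for set annotation terms. This search left out annotations that open with 'similar to' or name tRNA binding, so it gives no full count. Besides AML1, the first file lists a KH domain protein, a fold that binds single-stranded RNA, and an exonuclease with a KH domain, with differences of 4.84 and 2.44. A nucleotidyltransferase listed under metabolism had a difference of 3.77. Pentatricopeptide repeat proteins, which process RNA in chloroplasts and mitochondria, had 2 entries in that file. One of these had a difference of 2.68, and the other was dim in both groups, with 2.24 in pollen and 2.16 in sporophytic tissues, and did not pass (adjusted p = 0.22 from limma).

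In the study's file of transcripts lower in pollen, of which the first 1992 entries were used, the same search found 2. A pentatricopeptide repeat protein matched to At5g46580 had means of 4.09 in pollen and 9.58 in sporophytic tissues. The RNA-binding protein ATRZ-1A, matched to At3g26420 together with a neighbouring gene, had means of 2.68 in pollen and 8.37 in sporophytic tissues. Their differences of -5.49 and -5.68 ran in the other direction, with sizes inside the range of the Mei2-like probe sets and below 4 of those 6. Because the heading Post-Transcription of that file lies outside the entries used, the RNA processing transcripts lower in pollen are not analysed here, and the 36 do not stand for RNA processing as a whole.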

How the data were processed

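RNA of pollen (3 samples) and sporophytic tissues (2 samples) was hybridised to Affymetrix soybean arrays. The deposited values are log2 signals, and the paper's methods name RMA (background correction, quantile normalization, median polish) in affylmGUI (version not stated). The largest log2 difference between the groups in these values was 13.16, above the largest in the paper's table of its top transcripts. Folds given here can therefore differ from the authors' own, and the reason was not tested.

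Groups were compared over all 37593 soybean probe sets with limma 3.58.1 in R 4.3.3 (empirical Bayes linear model, two-sided, Benjamini-Hochberg adjustment, threshold 0.05, no filter, no replicate block), which gave the standard errors. The limma fit was also run on simulated arrays with independent normal noise and known shifts. Those arrays had no floor of the signal and no scaling shift between arrays, so the run checks neither. The sample titles give only a replicate number, the paper's methods call the replicates biological, and so few arrays limit the precision. The depth of an array is its share of probe sets at a signal of at least 100.

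The members are the probe sets under 1 heading of the study's additional file, grouped by annotation, and all 36 are named. The members and lists were chosen with earlier results of these data known. The additional files also hold the authors' fold changes and p-values, which were not used. Lists for 7 RNA pathways were searched by gene symbol. The array annotation gives 1 symbol to 8677 probe sets, more than 1 to 370 and no symbol to 28546, and 5 lists found no match. The others found PRP1, PRP2 and PRP3, proline-rich wall proteins, and GRP, not known to be RNA processing genes. Of these probe sets, 4 of 5 and 3 of 4 were lower in pollen, 0 and 1 were higher, and they are not described further. Marker lists for root and dividing cells found none, and the anther list found only AMS1, lower on 1 probe set and not known to mark anthers. Assembly Glycine_max_v4.0 was used for names only, and no sequence was printed. Figures were drawn with matplotlib 3.10.9. Calls were repeated with another threshold, with a fold minimum, without dim or shared probe sets, with other scalings, with a trend on intensity, with weighted arrays, with a replicate block and without each array in turn.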

Additional observations from a re-analysis of the deposited data

How the results depend on the processing

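The 36 were chosen by this contrast, so their calls under other settings describe the settings and are no support for the calls. All 36 RNA processing probe sets kept their direction under every alternative run, and every one tested kept its call under all of them other than array weights, with adjusted p from limma of at most 0.044, reached with the replicate block. With array weights 31 of 36 were called, and FPA (adjusted p = 0.19), the agenet probe set Gma.17533.2.S1_at, SUV3, GmaAffx.72401.1.S1_at and GmaAffx.11840.1.S1_at (adjusted p = 0.055) were lost, which was not tested further. The filter on dim probe sets tested 35 and the removal of probe sets open to several genes 34. Nothing in the labels makes a shared replicate number a pair of arrays, and deviations that share a number correlated by 0.02 for replicate 1 and 0.02 for replicate 2. With the replicate block 36 of the 36 were called. Without each array in turn the count stayed at 36.

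The scaling moved the sizes. The median difference of the 36 was 5.0 with the soybean probe sets quantile normalized and 5.12 with equal array medians, where the median of all probe sets shifted by 0.34 and 1.15. The lower share of all calls was 64.6% as deposited, 41.7% and 32.9%. Over all probe sets, 7104 were called higher, against 13917 when quantile normalized, 20047 with equal medians, 3784 after the filter on dim probe sets, 2182 with array weights, 3511 with the replicate block and 4306 at a threshold of 0.01. The 12969 lower calls became 8118 with the filter, 8350 with array weights and 8634 with the replicate block. Leaving out each array gave 4824 to 10172 higher and 10656 to 16633 lower calls. A signal minimum of 50 was reached on both sporophytic arrays by 20 of the 36 and one of 200 by 4, against 11 at 100, and 5 reached 100 when quantile normalized. The cause of these changes was not tested.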
